A study of Rattus norvegicus with 6 samples.

Results

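The Wnt target and pericentral zonation genes described here are the ligands Wnt2 and Rspo3, the receptor Lgr5, the ubiquitin ligases Znrf3 and Rnf43, the feedback inhibitors Axin2 and Nkd1, the transcription factor Tbx3, and the hepatocyte genes Lect2 and Rhbg. They were found by symbol among the 19616 genes of the table, in which 9 of the 10 had an entry, and Znrf3 was not analysed here. Livers of 3 male SD rats with fibrosis (FL group, rats 2, 5 and 12) and of 3 male SD control rats (CL group, rats 5, 6 and 7) were sequenced after removal of ribosomal RNA, 1 library from each rat. The agent that induced fibrosis was CCl4 (carbon tetrachloride, which damages hepatocytes). Olive oil alone went to the CL group, and a mixture of CCl4 and oil of equal volume to the FL group. For 5 weeks there were 2 doses per week into the peritoneum, each of 2 mL/kg. The age of the rats is not given in the sources used here. All 9 genes reached the mean of 0.1 FPKM required for the test, where FPKM counts the fragments of a gene relative to transcript length and library size. Because whole liver was sequenced, fewer cells of a type and less RNA per cell cannot be told apart. The hepatocyte gene Alb was by far the most abundant marker of a cell type, at 32272 FPKM on average in the CL group and 24803 in the FL group.

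In the liver lobule, Wnt ligands and R-spondin from endothelial cells around the central vein activate β-catenin in the neighbouring hepatocytes. LGR receptors bind R-spondins, which protects Frizzled receptors from removal by the ligases Rnf43 and Znrf3. Active β-catenin, with TCF/LEF factors, switches on its own inhibitors and maintains pericentral metabolism, including glutamine synthesis and much of the cytochrome P450 system that also activates CCl4.

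Rnf43, Nkd1, Tbx3 and Rhbg were upregulated in the FL group, and none of the 9 genes was downregulated. Upregulated here means an adjusted p under 0.05 (limma, Benjamini-Hochberg) together with a 2-fold or larger change, which 9.29% of the 14864 genes tested reached, against 0.935% downregulated. Axin2 rose by less than 2-fold, so that 5 of the 9 passed the adjusted p upward and 0 downward, compared with 16.9% and 1.94% of the genes tested. At an unadjusted p under 0.05, limma gave 6 higher and 0 lower, compared with 31.5% and 4.04%. Lgr5 reached the minimum mean only through the FL group and is left out of the next counts. In 5 of the other 8 genes each FL rat exceeded each CL rat, which held for 35.7% of the genes tested, and in 0 each FL rat was below each CL rat (4.78%). The median log2 fold change of these 8 genes was 1.03, against 0.29 over all genes tested. It was 0.82 against 0.08 with median scaling of the rats, and 0.61 against -0.04 with quantile normalization. The number upregulated fell from 4 to 3 with median scaling, a pseudocount of 1, no filter on low values, limma's prior without trend, or without CL5. It fell to 2 with quantile normalization, to 2 without CL6, CL7 or FL12, and to 1 without FL5.

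**Figure D1:**
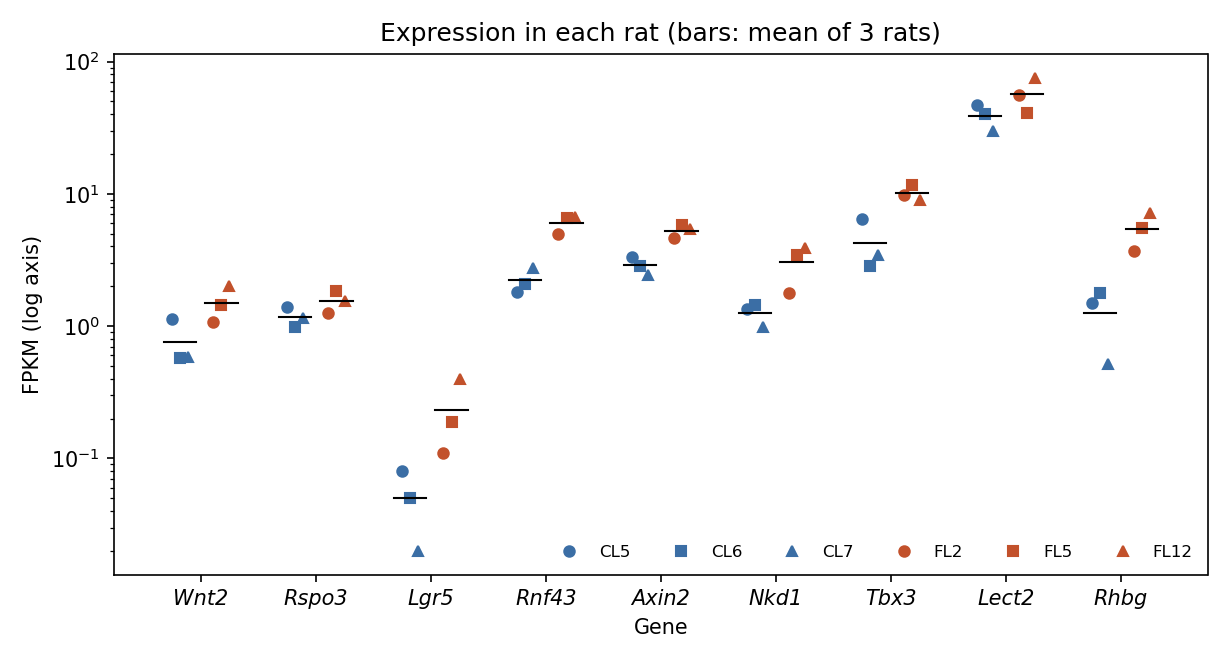
FPKM (log axis) of each of the 9 genes in each rat, with CL rats in blue, FL rats in orange and a bar at the mean of 3 rats. The FL rats stand above the CL rats without overlap for Lgr5, Rnf43, Axin2, Nkd1, Tbx3 and Rhbg, and overlap with them for Wnt2, Rspo3 and Lect2.

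Wnt2 (ENSRNOG00000051905, chromosome 4), a Wnt ligand made by endothelial cells of the liver, was measured at 1.14 FPKM in CL5, 0.57 in CL6 and 0.58 in CL7, against 1.07 in FL2, 1.45 in FL5 and 2.0 in FL12. CL5 was slightly above FL2, so the groups overlapped. Its log2 fold change of 0.92 ± 0.33 (SE, adjusted p = 0.0860) did not pass the threshold, and it passed in none of the 15 alternatives (range of adjusted p 0.0532 to 0.452). Rspo3 (ENSRNOG00000011568, chromosome 1), the R-spondin of central veins, stood at 1.39 FPKM in CL5, 0.99 in CL6 and 1.16 in CL7, against 1.26 in FL2, 1.83 in FL5 and 1.56 in FL12. Again CL5 was above FL2. The log2 fold change of Rspo3 was 0.36 ± 0.22 (SE, adjusted p = 0.264), and it became -0.13 with quantile normalization.

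Lgr5 (ENSRNOG00000004221, chromosome 7), an R-spondin receptor of hepatocytes beside the central vein, had the lowest level of the 9 genes. It was 0.08 FPKM in CL5, 0.05 in CL6 and 0.02 in CL7, against 0.11 in FL2, 0.19 in FL5 and 0.4 in FL12. The FL rats lay above the CL rats, although the CL values are only a few steps of a table with 2 decimals. Its log2 fold change was 1.08 ± 0.47 (SE, adjusted p = 0.142), with 0.23 at a pseudocount of 1 and 1.97 at a pseudocount of 0.01, and it passed in none of the 13 alternatives in which Lgr5 could be tested.

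Rnf43 (ENSRNOG00000007606, chromosome 10), the ligase that clears Frizzled receptors and is itself a Wnt target, had the smallest adjusted p of the 9 genes. It was 1.8 FPKM in CL5, 2.09 in CL6 and 2.77 in CL7, against 4.95 in FL2, 6.59 in FL5 and 6.67 in FL12. The lowest FL rat stood well above the highest CL rat. From 2.22 ± 0.498 to 6.07 ± 0.971 FPKM (SD, n = 3, limma), Rnf43 rose by a log2 fold change of 1.42 ± 0.20 (SE, adjusted p = 0.00509). It alone of the 9 genes was upregulated under each of the 15 alternatives (range of adjusted p 0.00346 to 0.0257).

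Axin2 (ENSRNOG00000055010, chromosome 10), a scaffold of the complex that degrades β-catenin and a general Wnt target, was 3.36 FPKM in CL5, 2.84 in CL6 and 2.45 in CL7, against 4.66 in FL2, 5.8 in FL5 and 5.38 in FL12. The groups were separate and the rats within each were close together. Axin2 rose 1.81-fold, a log2 fold change of 0.86 ± 0.16 (SE, adjusted p = 0.0126). The threshold on adjusted p was missed with quantile normalization (0.0629), without CL7 (0.0515) and without FL5 (0.0522), the range being 0.00889 to 0.0629. Nkd1 (ENSRNOG00000014293, chromosome 19), which restrains Wnt signalling by binding Dishevelled, was 1.35 FPKM in CL5, 1.45 in CL6 and 0.99 in CL7, against 1.78 in FL2, 3.42 in FL5 and 3.89 in FL12. FL2 was much nearer to the CL group than FL5 and FL12 were. With a log2 fold change of 1.14 ± 0.30 (SE, adjusted p = 0.0365), Nkd1 was upregulated, but it lost this call in 10 of the 15 alternatives, median scaling among them (adjusted p = 0.0651, range 0.00639 to 0.133).

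Tbx3 (ENSRNOG00000008706, chromosome 12), a T-box transcription factor and Wnt target of hepatocytes, was 6.43 FPKM in CL5, 2.87 in CL6 and 3.45 in CL7, against 9.85 in FL2, 11.72 in FL5 and 8.93 in FL12. All FL rats were above CL5, which itself was far above CL6 and CL7. From 4.25 ± 1.91 to 10.2 ± 1.42 FPKM (SD, n = 3, limma), Tbx3 rose by a log2 fold change of 1.32 ± 0.28 (SE, adjusted p = 0.0176). The call was lost in 4 of 15 alternatives, with quantile normalization (adjusted p = 0.0628) and without CL6 (0.0506), CL7 (0.0712) or FL5 (0.0687), the range being 0.00873 to 0.0712.

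Lect2 (ENSRNOG00000012189, chromosome 17), a protein secreted by hepatocytes and a β-catenin target, was the most abundant of the 9 genes. It was 46.83 FPKM in CL5, 40.46 in CL6 and 29.7 in CL7, against 55.57 in FL2, 40.87 in FL5 and 75.52 in FL12. FL5 lay among the CL rats, and the log2 fold change of 0.53 ± 0.25 (SE, adjusted p = 0.162) did not pass. Rhbg (ENSRNOG00000019412, chromosome 2), an ammonium transporter of pericentral hepatocytes, was 1.5 FPKM in CL5, 1.77 in CL6 and 0.52 in CL7, against 3.69 in FL2, 5.51 in FL5 and 7.15 in FL12. The groups were separate, with CL7 far below CL5 and CL6. From 1.26 ± 0.658 to 5.45 ± 1.73 FPKM (SD, n = 3, limma), Rhbg rose 4.36-fold, with a log2 fold change of 2.13 ± 0.42 (SE, adjusted p = 0.0146). This call was lost without FL5 (adjusted p = 0.0551) and without FL12 (0.0505), the range being 0.0115 to 0.0551.

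By level in the CL group, per transcript length, the order was Lect2 (39.0 FPKM), Tbx3 (4.25), Axin2 (2.88), Rnf43 (2.22), Nkd1 and Rhbg (1.26 each), Rspo3 (1.18), Wnt2 (0.763) and Lgr5 (0.05). Over the CL rats the range of Lect2 lay above that of Tbx3, the range of Rnf43 above that of Nkd1, and the range of Wnt2 above that of Lgr5, while the ranges of the other neighbours in this order overlapped. In the FL group Tbx3 came next after Lect2 (10.2 and 57.3 FPKM), and then Rnf43 (6.07), Rhbg (5.45), Axin2 (5.28), Nkd1 (3.03), Rspo3 (1.55), Wnt2 (1.51) and Lgr5 (0.233). There the ranges of Rnf43, Rhbg and Axin2 overlapped, as did those of Nkd1, Rspo3 and Wnt2. FL2 was the lowest FL rat for 7 of the 9 genes, against 51.2% of all genes tested and 55.3% of those with a positive log2 fold change. FL5 was lowest for Lect2 and FL12 for Tbx3. FL12 was the highest FL rat for 6 of the 9.

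TCF/LEF factors bind a short DNA word, so the 250 bases before the transcript start were taken from a set of RefSeq promoters (build GRCr8). The set used here held 7 of the 10 genes, Wnt2, Rspo3, Rnf43, Axin2, Nkd1, Lect2 and Rhbg. Both strands were searched for CTTTGAT, for CTTTGAA, for CTTTGTT and for CTTTGTA, which share their first letters. A match was present in Axin2, Nkd1 and Lect2, or 3 of 7, against 14.9% of the 33465 rat promoters of this length. The spelling CTTTGAT was present in these same 3, against 3.15% of all promoters. Axin2 held a second match, CTTTGAA, and 1.73% of all promoters held 2 or more. In Axin2 the matches begin 232 and 132 bases before the start, in Nkd1 141 bases, and in Lect2 68 bases, where the word lies on the opposite strand and reads ATCAAAG. No match in the other windows says only that these letters are not there, and a match describes the sequence and not binding. For Axin2, Rnf43 and Rhbg the start used lies inside the outer bounds of the gene, and FPKM of a gene do not show which start was in use. The windows with a match are printed because Axin2 and Nkd1 rose while Lect2 did not pass, and Rnf43 and Rhbg rose without a match. They are given 5′ to 3′ along the gene with matches in capitals, from chr10:94398535-94398784 (plus strand), chr19:34722847-34723096 (minus strand) and chr17:8049784-8050033 (plus strand).
Axin2: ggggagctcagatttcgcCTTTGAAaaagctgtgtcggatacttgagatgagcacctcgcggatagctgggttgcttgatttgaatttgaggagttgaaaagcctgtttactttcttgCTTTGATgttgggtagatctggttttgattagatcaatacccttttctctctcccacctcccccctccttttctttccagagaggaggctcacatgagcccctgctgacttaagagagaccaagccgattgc
Nkd1: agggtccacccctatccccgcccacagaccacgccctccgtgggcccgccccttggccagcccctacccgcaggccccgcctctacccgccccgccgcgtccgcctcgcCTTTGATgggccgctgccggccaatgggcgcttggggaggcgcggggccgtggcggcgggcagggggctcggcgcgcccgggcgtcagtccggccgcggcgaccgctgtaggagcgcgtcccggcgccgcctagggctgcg
Lect2: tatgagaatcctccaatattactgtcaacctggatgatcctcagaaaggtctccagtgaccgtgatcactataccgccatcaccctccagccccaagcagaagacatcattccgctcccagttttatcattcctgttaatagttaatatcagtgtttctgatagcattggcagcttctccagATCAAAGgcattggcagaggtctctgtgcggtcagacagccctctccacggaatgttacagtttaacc

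Among 80 other genes of the Wnt pathway, 68 had an entry and 50 could be tested, 4 of them only through the level in the FL group. Of the 50, 11 were upregulated and 0 downregulated by limma (9.29% and 0.935% of all genes tested). At an unadjusted p under 0.05 there were 22 higher and 3 lower, compared with 31.5% and 4.04%. The 22 include Wnt5b, which belongs to these 4 and was named after its values were seen. Without these 4 the median log2 fold change was 0.36, which was 0.07 above that of all genes. By role, 2 ligands, 1 receptor, 5 inhibitors, 0 genes of the core and 3 other targets were upregulated, and the difference between roles was not tested. The count of 11 became 4 with a pseudocount of 1 and with quantile normalization, 7 with median scaling, 5 without CL6 or CL7, and 4 without FL5 or FL12.

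Of the other ligand and secretion genes 7 could be tested, 1 of them (Wnt5b, named after its values were seen) only through the level in the FL group, and the other 6 had a median log2 fold change of 1.25. Wnt9b, a ligand of central vein endothelium, was 0.14 FPKM in CL5, 0.14 in CL6 and 0.07 in CL7, against 0.37 in FL2, 0.67 in FL5 and 1.05 in FL12. The FL rats were all higher, and Wnt9b was upregulated with a log2 fold change of 1.80 ± 0.40 (SE, adjusted p = 0.0215), a call lost in 7 of 14 alternatives (range 0.0101 to 0.0812). Wnt4, a ligand that can act without β-catenin, rose from 0.257 ± 0.106 to 1.34 ± 0.725 FPKM (SD, n = 3, limma), with a log2 fold change of 1.92 ± 0.44 (SE, adjusted p = 0.0226). It lost the call in 6 of 14 alternatives (range 0.00738 to 0.0821). Porcn, the acyltransferase that Wnt ligands need for secretion, rose by less than 2-fold, with a log2 fold change of 0.97 ± 0.26 (SE, adjusted p = 0.0375), and missed the threshold on adjusted p in 7 of 14 alternatives (range 0.0331 to 0.376). Wnt10a and Wnt16, named after their values were seen, were listed at 0 in all 6 rats.

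The 13 receptors tested had a median log2 fold change of 0.00, which was 0.29 below that of all genes. Of the 13, 1 was upregulated and 0 downregulated by limma, compared with 9.29% and 0.935% of all genes tested. Fzd6, a Frizzled receptor, was the upregulated one, with a log2 fold change of 1.22 ± 0.33 (SE, adjusted p = 0.0391), and it lost the call in 9 of 14 alternatives (range 0.0258 to 0.234). Fzd4 and Fzd7, receptors of the same family named after their values were seen, were lower in each FL rat than in each CL rat. This held for 4.78% of all genes tested. Fzd4 and Fzd7 did not pass (log2 fold change -0.65 and -0.37, limma, adjusted p = 0.0518 and 0.154). Both passed the adjusted p with quantile normalization, and Fzd4 also with median scaling. Lgr4, the more abundant R-spondin receptor of the liver, was 15.06 FPKM in CL5, 12.51 in CL6 and 14.82 in CL7, against 15.79 in FL2, 11.91 in FL5 and 13.47 in FL12. Its groups overlapped throughout, and the log2 fold change was -0.05 ± 0.14 (SE, adjusted p = 0.835).

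Of 8 inhibitors tested 5 were upregulated, compared with 9.29% of all genes tested. The 7 inhibitors that did not need the FL group to reach the minimum mean had a median log2 fold change of 1.68. Sfrp1, a secreted protein that binds Wnt ligands, was 0.52 FPKM in CL5, 0.58 in CL6 and 0.34 in CL7, against 2.39 in FL2, 4.29 in FL5 and 6.31 in FL12. The groups were far apart, and its log2 fold change of 2.85 ± 0.35 (SE, adjusted p = 0.00409) was called under all 15 alternatives. Frzb, a relative of Sfrp1, rose from 0.550 ± 0.154 to 1.96 ± 0.264 FPKM (SD, n = 3, limma), a log2 fold change of 1.68 ± 0.25 (SE, adjusted p = 0.00580). Its call was lost in 1 of 15 alternatives, with a pseudocount of 1 (log2 fold change 0.93). Dkk3, Dkk2 and Apcdd1 were upregulated with log2 fold changes of 2.35, 1.88 and 1.64 (limma, adjusted p = 0.00987, 0.0250 and 0.0431). Dkk3 kept the call under all 15 alternatives, while Dkk2 lost it in 6 of 14 and Apcdd1 in 10 of 14. All 8 inhibitors were lowest in FL2 among the FL rats, against 51.2% of all genes tested.

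Notum, an enzyme that inactivates Wnt ligands and is itself a Wnt target, was the 1 inhibitor that fell. It was 22.16 FPKM in CL5, 19.88 in CL6 and 18.78 in CL7, against 13.55 in FL2, 15.29 in FL5 and 14.3 in FL12. Each FL rat was below each CL rat, and the log2 fold change was -0.49 ± 0.11 (SE, adjusted p = 0.0240). After median scaling it was -0.71. The adjusted p of Notum missed the threshold in 6 of 15 alternatives, without the trend and without CL5, CL6, CL7, FL5 or FL12 (range 0.00828 to 0.0760).

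In the core of the pathway, which includes the destruction complex and the nuclear partners of β-catenin, 0 of 16 genes passed the adjusted p in limma. Over all genes tested, 16.9% passed it upward and 1.94% downward. At an unadjusted p under 0.05, 3 core genes were higher and 0 lower, compared with 31.5% and 4.04% of all genes tested. The median log2 fold change was 0.26 over the 14 genes that did not need the FL group to reach the minimum mean, close to that of all genes. Ctnnb1, the gene of β-catenin, was 36.64 FPKM in CL5, 28.77 in CL6 and 27.59 in CL7, against 35 in FL2, 39.27 in FL5 and 38.06 in FL12. CL5 lay within the range of the FL rats, and the log2 fold change was 0.28 ± 0.14 (SE, adjusted p = 0.180).

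Of 6 further Wnt targets tested, Cd44, Ccnd1 and Sp5 were upregulated, and 0 were downregulated by limma, compared with 9.29% and 0.935% of all genes tested. At an unadjusted p under 0.05, 5 were higher and 1 lower, compared with 31.5% and 4.04%. The lower one was Myc, a growth-promoting transcription factor, named after its values were seen, at 5.8 FPKM in CL5, 21.33 in CL6 and 17.55 in CL7, against 2.43 in FL2, 4.72 in FL5 and 8.13 in FL12. CL5 lay within the range of the FL rats, and the log2 fold change of Myc, -1.49 ± 0.55 (SE, adjusted p = 0.0943), had the largest size of the negative values in the Wnt lists but did not pass. Cd44, a hyaluronan receptor also found on leukocytes and stromal cells, was 0.55 FPKM in CL5, 1.07 in CL6 and 0.77 in CL7, against 2.93 in FL2, 4.79 in FL5 and 4.49 in FL12. Its log2 fold change of 2.23 ± 0.28 (SE, adjusted p = 0.00414) was called under all 15 alternatives. Ccnd1, the gene of cyclin D1, was 3.49 FPKM in CL5, 3.11 in CL6 and 3.35 in CL7, against 5.35 in FL2, 23.15 in FL5 and 26.26 in FL12. FL2 was far nearer to the CL rats than FL5 and FL12 were. The log2 fold change of Ccnd1 was 2.13 ± 0.53 (SE, adjusted p = 0.0303), and the call was lost in 9 of 15 alternatives (range 4.75e-04 to 0.102). Sp5, a transcription factor, rose from 0.173 ± 0.120 to 0.687 ± 0.186 FPKM (SD, n = 3, limma) and lost its call in 9 of 14 alternatives (adjusted p = 0.0361, range 0.0308 to 0.183).

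**Figure D2:**
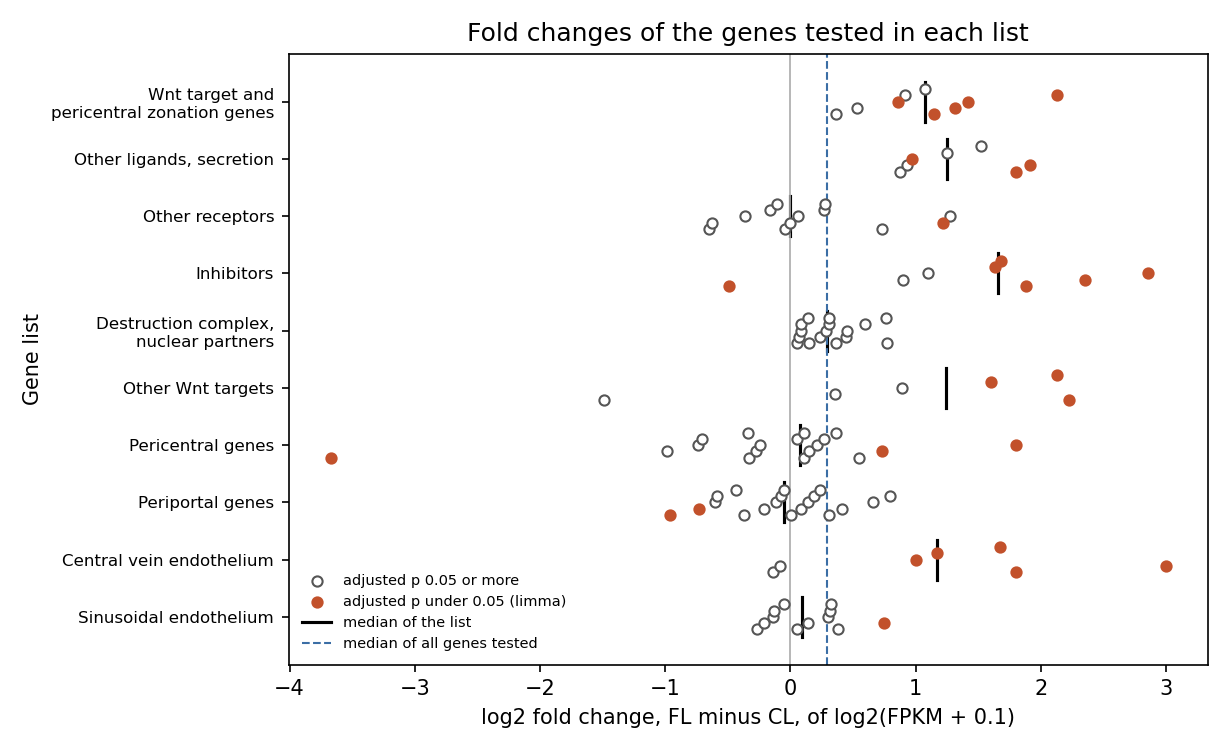
Log2 fold change (FL minus CL, log2(FPKM + 0.1)) of each gene tested, on the horizontal axis, by gene list on the vertical axis, with filled points for an adjusted p under 0.05 (limma), black bars for list medians and a dashed line for the median of all genes tested. The median is 1.08 for the 9 Wnt target and pericentral zonation genes (the value of Lgr5, and 1.03 without it), 0.08 for the other pericentral genes and -0.05 for the periportal genes.

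Of 18 other pericentral genes of hepatocytes tested, 1 was upregulated (Cyp7a1) and 1 downregulated (Car3), compared with 9.29% and 0.935% of all genes tested. At an unadjusted p under 0.05, 2 were higher and 5 lower, compared with 31.5% and 4.04%. The log2 fold change was positive in 10 and negative in 8, where 11575 of all 14864 genes tested were positive. With median scaling it was positive in 5 of the 18 and negative in 13. The median of 0.08 was 0.21 below the median of all genes, under which 14 of the 18 lay. Glul, the glutamine synthetase of the hepatocytes next to the central vein, was 106.6 FPKM in CL5, 89.12 in CL6 and 80.68 in CL7, against 135.35 in FL2, 133.02 in FL5 and 193.66 in FL12. The groups were separate, and Glul rose by less than 2-fold, with a log2 fold change of 0.73 ± 0.19 (SE, adjusted p = 0.0344) that missed the threshold on adjusted p in 8 of 15 alternatives, median scaling among them (adjusted p = 0.106, range 0.0309 to 0.126). Cyp7a1, the rate-limiting enzyme of bile acid synthesis, was 51.11 FPKM in CL5, 26.97 in CL6 and 29.43 in CL7, against 96.25 in FL2, 89.15 in FL5 and 201.61 in FL12. FL12 was far above FL2 and FL5, and the log2 fold change was 1.80 ± 0.35 (SE, adjusted p = 0.0134). Car3, a carbonic anhydrase, was 680.75 FPKM in CL5, 1123.73 in CL6 and 865.52 in CL7, against 43.98 in FL2, 253.2 in FL5 and 28.53 in FL12. It fell in each FL rat, least in FL5, with a log2 fold change of -3.67 ± 0.71 (SE, adjusted p = 0.0132). Both calls were lost without CL7 (adjusted p = 0.0573 for Cyp7a1, range 0.0109 to 0.0573, and 0.0513 for Car3, range 0.00163 to 0.0513), and 2 genes were downregulated without CL6.

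Cyp2e1, the main enzyme that activates CCl4, was 704.9 FPKM in CL5, 534.91 in CL6 and 600.52 in CL7, against 548.53 in FL2, 719.99 in FL5 and 887.97 in FL12. The groups overlapped, and the log2 fold change was 0.21 ± 0.25 (SE, adjusted p = 0.571). Cyp1a2, a P450 of drug metabolism, was 353.47 FPKM in CL5, 388.2 in CL6 and 369.13 in CL7, against 520.47 in FL2, 186.66 in FL5 and 316.43 in FL12. Both its highest and its lowest value were in FL rats (log2 fold change -0.24 ± 0.34 (SE, adjusted p = 0.639)). Oat, ornithine aminotransferase, was 32.23 FPKM in CL5, 14.78 in CL6 and 29.55 in CL7, against 14.02 in FL2, 16.22 in FL5 and 7.94 in FL12. CL6 lay among the FL rats, and the log2 fold change of -0.98 ± 0.35 (SE, adjusted p = 0.0857) passed the threshold only without CL6 (adjusted p = 0.0378, range 0.0378 to 0.240).

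Periportal genes mark the opposite end of the lobule. Of 19 tested entries for 18 genes, 0 were upregulated and 0 downregulated by limma, compared with 9.29% and 0.935% of all genes tested. At an unadjusted p under 0.05, 1 was higher and 2 were lower, compared with 31.5% and 4.04%. The median log2 fold change of -0.05 was 0.34 below that of all genes. Cyp2f4, a P450, fell by less than 2-fold from 15.9 ± 1.51 to 9.57 ± 0.278 FPKM (SD, n = 3, limma), a log2 fold change of -0.73 ± 0.11 (SE, adjusted p = 0.00689). Hal, histidine ammonia-lyase, also fell by less than 2-fold, from 52.9 ± 5.02 to 28.4 ± 11.6 FPKM, with a log2 fold change of -0.96 ± 0.25 (SE, adjusted p = 0.0347). Hal was downregulated with either scaling, but its adjusted p missed the threshold in 7 of 15 alternatives (range 0.00888 to 0.101). Cps1, the first enzyme of the urea cycle, was 496.78 FPKM in CL5, 443.63 in CL6 and 489.3 in CL7, against 398.46 in FL2, 718.91 in FL5 and 378.57 in FL12. FL5 was above all CL rats and the other FL rats below them (log2 fold change 0.00 ± 0.27 (SE, adjusted p = 0.995)). Without FL2, 2 periportal genes were upregulated, and without FL5, 1 was downregulated.

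Of 7 markers of central vein endothelium, a source of Wnt2, Wnt9b and Rspo3, 5 were upregulated and 0 downregulated by limma, compared with 9.29% and 0.935% of all genes tested. At an unadjusted p under 0.05, 5 were higher and 0 lower, compared with 31.5% and 4.04%. Besides Wnt9b the 5 were Fabp4, Cdh13, Thbd and Ptgs1, with log2 fold changes of 3.00, 1.68, 1.17 and 1.01, while Kit and Lhx6 did not pass (-0.14 and -0.08). These genes, named after their values were seen, are expressed in other cells too. With median scaling 2 were upregulated, and with quantile normalization or a pseudocount of 1 the count was 1. It was 3 of 4 with a mean of 1 FPKM required, 3 without CL5, CL7 or FL12, and 2 without CL6 or FL5. Fabp4, a fatty acid binding protein, had the highest mean of the list over the 6 rats, although Ptgs1 was higher in each CL rat and in FL2. Fabp4 was called under all 15 alternatives. The call was lost in 10 of 14 alternatives for Cdh13, in 6 of 15 for Ptgs1 and in 3 of 15 for Thbd. The list summed to 8.78 FPKM in CL5, 8.45 in CL6 and 9.05 in CL7, against 21.3 in FL2, 35.2 in FL5 and 25.3 in FL12. Of 12 sinusoidal endothelium markers, led by Fcgr2b, 0 were upregulated and 0 downregulated by limma, compared with 9.29% and 0.935% of all genes tested. At an unadjusted p under 0.05, 3 were higher and 0 lower, compared with 31.5% and 4.04%. Stab2, a scavenger receptor named after its values were seen, rose by less than 2-fold, with a log2 fold change of 0.75 ± 0.15 (SE, adjusted p = 0.0143). The difference between these endothelial lists was not tested. The sinusoidal sums were 127 to 135 FPKM in CL rats and 130 to 160 FPKM in FL rats.

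Stellate cell and myofibroblast markers, led by the collagen gene Col3a1, summed to 96.1 FPKM in CL5, 99.5 in CL6 and 92.2 in CL7, against 219 in FL2, 562 in FL5 and 514 in FL12. Of 10 tested, 5 were upregulated, compared with 9.29% of all genes tested. All 10 were lowest in FL2 among the FL rats, as were 7 of the 9 Wnt target and pericentral zonation genes. FL2 was also lowest for 51.2% of all genes tested, and for 55.3% of those with a positive log2 fold change. Macrophage markers, led by Clec4f over the 6 rats, summed to 146 to 156 FPKM in CL rats and 190 to 324 FPKM in FL rats. Of these markers 3 of 9 were upregulated, against 9.29% of all genes tested, and all 9 were lowest in FL12, against 24.8%. Cholangiocyte markers, led by Epcam, summed to 5.66 to 7.97 FPKM in CL rats and 5.65 to 11.95 FPKM in FL rats. Lymphocyte markers, led by Cd8a over the 6 rats, summed to 1.99 to 2.93 FPKM and 2.68 to 6.76 FPKM. No marker of these lists was at 0 in all rats. The part of these cell types in the results for the Wnt target and pericentral zonation genes was not tested.

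Hepatocyte markers, led by Alb, summed to 50512 to 53028 FPKM in CL rats and 43711 to 46375 FPKM in FL rats. Of 8 tested, 0 passed the adjusted p in either direction by limma, compared with 16.9% upward and 1.94% downward of all genes tested. At an unadjusted p under 0.05, 1 was higher and 0 were lower, compared with 31.5% and 4.04%. However, in 4 each FL rat was below each CL rat, which held for 4.78% of all genes tested. In 2 each FL rat was above each CL rat, against 35.7% of all genes tested. For genes this abundant the prior variance that limma fits along the level was large, with a standard error of 0.98 for the log2 fold change of Alb (-0.38), against 0.12 without the trend. The value for Alb depended on scaling, at -0.60 with median scaling and 0.42 with quantile normalization, and the median of the list went from -0.09 to -0.32 and 0.33. Apoa1 and Ttr were named after their values were seen. Without the trend Apoa1 passed (log2 fold change 0.73, adjusted p = 0.0397), which it did not with the trend, while Ttr and Alb passed with neither (0.0545 and 0.0789 without the trend). The count of 0 therefore says little about hepatocyte markers.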

How the data were processed

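The 6 livers were grouped by their titles. Reads were trimmed, aligned with TopHat2 and kept if uniquely placed, and the authors deposited FPKM per gene with 2 decimals. The labels name GRCh38, a human build, although the gene identifiers are Ensembl's for the rat, so genes are placed by chromosome only. Whether counting for these gene FPKM used strand is not given in the sources used here. For long noncoding RNAs the study states that antisense readings were left out. The values of 2 further columns match no sample and were not used. The read total of each rat is not given in the sources used here, so no counting interval is given. FPKM summed to 309425 to 340467 in CL rats and 272110 to 309226 in FL rats, and no pair of rats shared over 2.54% of values above 0.

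The groups were compared with limma (trend) on log2(FPKM + 0.1), a scale that understates fold changes of low genes, for 14864 genes whose mean reached 0.1 FPKM. The p-values were adjusted over these genes by Benjamini-Hochberg, with the thresholds of the study (adjusted p under 0.05, at least 2-fold). Alternatives were pseudocounts of 1 and 0.01, no filter or a mean of 1 FPKM, median scaling (on 9201 genes above 1 FPKM in every rat), quantile normalization, limma's prior without trend or made robust, no fold limit, and each rat left out. Counts of hepatocyte and central vein endothelium markers under these alternatives were added after the data were seen. The members and lists were chosen with earlier results of these data known. Named genes are all members, those of the Wnt and zonation lists with an adjusted p under 0.05, Wnt9b, Ctnnb1, Lgr4, Glul, Cyp2e1, Cyp1a2, Oat and Cps1, and the marker of each cell type with the highest mean over the 6 rats. Further genes are marked as named after their values were seen. The procedure was tested on simulated data. R 4.3.3, limma 3.58.1, Python 3.11.15, numpy 2.4.6, pandas 2.3.3 and matplotlib 3.10.9 were used.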

Additional observations from a re-analysis of the deposited data

How the results depend on the processing

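The 9 Wnt target and pericentral zonation genes had a positive log2 fold change under each alternative in which they were tested, except Rspo3 with quantile normalization (-0.13). Before any alternative was applied, 11575 of all 14864 genes tested were positive too. Lgr5, which reached the minimum mean only through the FL group, was tested in 13 of the 15 alternatives. It missed the filter with a mean of 1 FPKM required and without FL12. Of the 9 genes, 4 were upregulated, which became 3 with a pseudocount of 1, no filter, median scaling or no trend, and 5 without a fold limit. The count was 2 with quantile normalization and 1 to 4 with each rat left out (1 without FL5), and 0 were downregulated, also with each rat left out. For the other Wnt pathway genes, 11 upregulated became 4 with a pseudocount of 1, 5 with a mean of 1 FPKM required (31 tested), 7 with median scaling, 4 with quantile normalization, and 4 (without FL5) to 14 (without FL2) with rats left out. Their downregulated genes went from 0 to 1 without a fold limit, and 0 to 1 with rats left out (1 without CL5). Pericentral genes gave 2 upregulated without a fold limit, and with rats left out 0 to 1 upregulated and 0 to 2 downregulated (0 without CL7, 2 without CL6). Periportal genes gave 1 downregulated with median scaling, 1 with quantile normalization, 2 without a fold limit, and with rats left out 0 to 1 downregulated (1 without FL5) and 0 to 2 upregulated (2 without FL2). The log2 fold change changed sign for Cyp2e1 with median scaling (-0.015), for Cps1 with median scaling (-0.22), and with rats left out for Cps1 (-0.29 without FL5 to 0.17 without FL12), Cyp1a2 (-0.61 without FL2 to 0.13 without FL5) and Lgr4 (-0.15 without FL2 to 0.050 without FL5), and these 4 genes did not pass the test in the report. The cause was not tested. No paired analysis was possible because the groups share only the number 5, which belongs to different rats. Median scaling moved the median log2 difference of all genes from 0.29 to 0.08, and quantile normalization to -0.04.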

Other observations

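Wnt9a, a ligand gene whose mean just missed the 0.1 FPKM required, was listed at 0 in CL5 and CL6 and at 0.04 FPKM in CL7, against 0.11 in FL2, 0.2 in FL5 and 0.22 in FL12. Wnt5a, a ligand that mostly acts without β-catenin, was 0.07 FPKM in CL5, 0.17 in CL6 and 0.23 in CL7, against 0.29 in FL2, 0.68 in FL5 and 1.07 in FL12, and did not pass (limma, adjusted p = 0.0595) although the groups were separate. Wnt9a and Wnt5a were chosen after their values were seen. Markers of cycling cells, led by Mki67, summed to 2.75 FPKM in CL5, 5.36 in CL6 and 3.58 in CL7, against 4.69 in FL2, 22.4 in FL5 and 19.4 in FL12. FL2 lay within the range of the CL rats for this sum and was the lowest FL rat for all 6 markers, as it was for Ccnd1. It was also lowest for 55.3% of all tested genes with a positive log2 fold change.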
